A study of Mus musculus with 6 samples.

Results

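The genes described here carry cholesterol synthesis, fatty acid synthesis and their control by SREBP and LXR proteins in lung endothelial cells (ECs) that were sorted from mice with breast cancer metastases, after treatment with either clodronate-liposomes or PBS-liposomes. A list of 34 genes was given by symbol. Each was read from the probe set that the platform annotation assigned to that symbol alone and that had the highest mean over the 6 arrays, a choice that did not use the treatment difference. Such a probe set was found for 32 of the 34 genes, among 18193 genes on the array, whereas Acat2 and Nr1h2 were not analysed here. The mice were of the NSG strain, which lacks T, B and natural killer cells, were 6 to 8 weeks old, and received MDA-MB-231-LM2 cells, a lung-metastatic derivative of a human breast cancer line, through the tail vein. The control group was given liposomes filled with PBS, and the other group was given liposomes filled with clodronate, a drug that kills the phagocytes that engulf them, by vein on days 14, 16 and 18 after the tumor cells. Lungs were taken on day 20, a time that the sample labels round to 3 weeks. ECs came from the entire lung, not only from metastases, and were collected as CD31-positive cells without markers of leukocytes, myeloid cells, epithelium, fibroblasts, mural cells or the tumor cells. Each group held 3 samples that the labels call biological replicates, without saying how many mice each one contained, so that p values measure only the spread between these samples. Values are log2 signals, differences are clodronate-liposome minus PBS-liposome, and adjusted p values come from limma with Benjamini-Hochberg adjustment over 45037 probe sets.

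Cells make cholesterol from acetyl-CoA through mevalonate, isoprenoid units, squalene and lanosterol. The SREBP transcription factors switch on the genes of this pathway and of fatty acid synthesis when sterols in the endoplasmic reticulum run low, because the escort protein SCAP then carries them to the Golgi for cleavage, whereas INSIG proteins hold them back when sterols are plentiful. The LXR nuclear receptors are activated by oxysterols and switch on cholesterol export through ABCA1 and ABCG1, so that the arms oppose each other. ECs take up lipoprotein lipids from blood, and both arms are active in them.

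No member of the list passed the threshold of 0.05 between clodronate-liposome and PBS-liposome ECs (0 of 32), and the lowest adjusted p was 0.232, for Sc5d. Over the entire array, 138 of 45037 probe sets passed it, or 0.306%, and by brightest probe set 79 of 18193 genes did, or 0.434%. At an unadjusted limma p under 0.05, 3 members were higher after clodronate-liposomes (Sc5d, Dhcr7 and Scd1) and 0 were lower, against 4.54% of all genes that were higher and 5.49% that were lower by the same rule. The treatment groups did not overlap, with every clodronate-liposome array above every PBS-liposome array, for Sc5d, Hsd17b7 and Scd1. The opposite order was seen for 0 members at the brightest probe set. Among all genes, 7.49% were separated upward and 8.75% downward. The 3 members in each upward count made up 9.38% of the 32. At a dimmer probe set the groups were apart downward for Acaca (-0.54), Abca1 (-0.35), Scd2 (-0.21) and Mvk (-0.086). They were apart upward at a dimmer probe set of Acly (0.29), Hsd17b7 (0.29) and Abcg1 (0.18). That Acly probe set was near the floor of the array, at percentile 3.4 of mean signal, and the gene's next brightest ones gave 0.024 and -0.050.

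The member differences were small and split by direction, with 17 positive and 15 negative. They ranged from -0.54 for Lss to 0.49 for Sc5d, with a median of 0.029, beside a median of -0.0031 over all genes. For 25 of the 32 members the difference was under 0.25 in size. The 95% confidence interval had a median half-width of 0.27 and lay within 1.5-fold in either direction for 24 members, so that larger differences were outside the interval for those genes. For Fdft1, Sqle, Lss, Tm7sf2, Sc5d, Dhcr7, Scd1 and Nr1h3 the interval reached beyond 1.5-fold. By role, the median was 0.031 for the 6 measured enzymes of the mevalonate steps, 0.18 for the 11 enzymes from squalene to cholesterol, -0.018 for 6 regulators, 0.037 for 5 genes of fatty acid synthesis and -0.12 for 4 genes of the LXR arm. In a bulk sample, fewer cells of a type and less RNA per cell cannot be told apart.

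**Figure D1:**
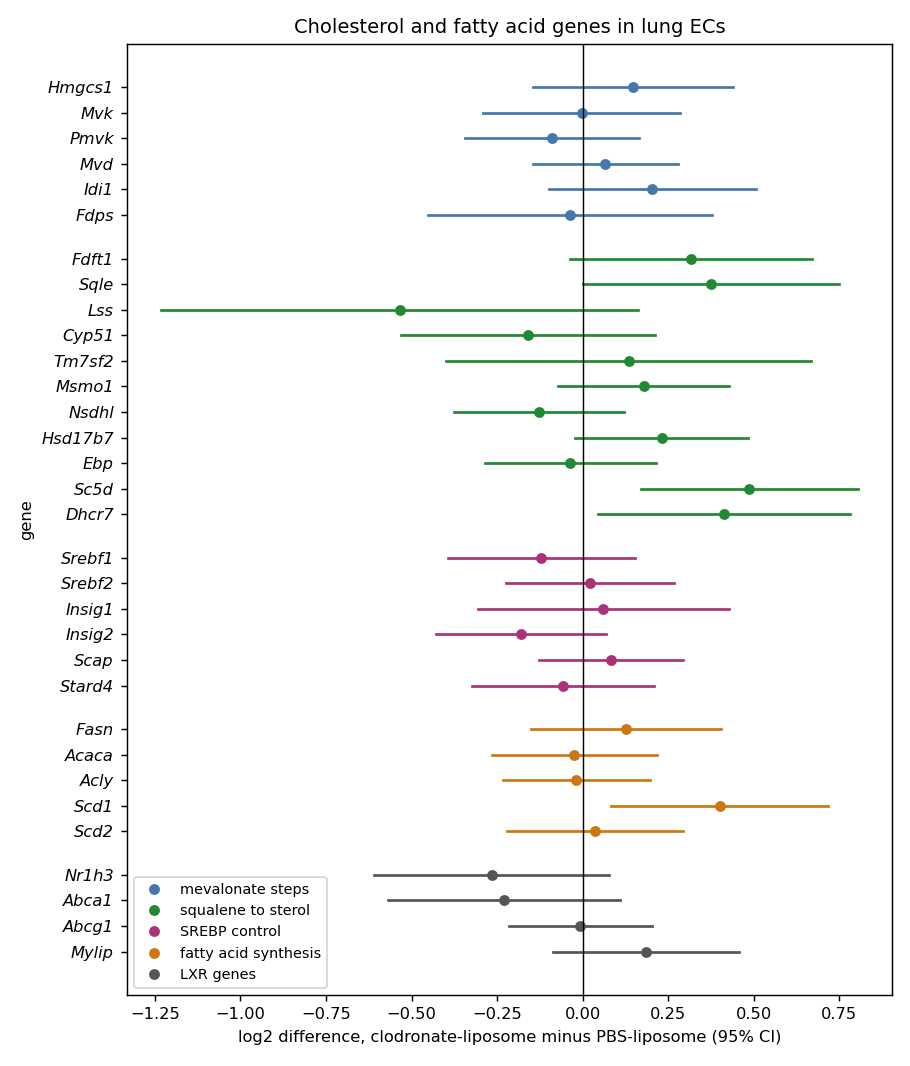
Difference in log2 signal, clodronate-liposome minus PBS-liposome, for each of the 32 measured members (dots) with its 95% confidence interval from limma (lines), grouped and coloured by role. The interval excluded 0 for Sc5d, Dhcr7 and Scd1, and Lss had the widest interval, from -1.23 to 0.16.

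Before the members are described by role, the arrays themselves are given. The EC label was borne out by the defining markers, since the 8 endothelial markers had a mean log2 signal of 13.05 to 13.14 on the PBS-liposome arrays and 13.04 to 13.23 on the clodronate-liposome arrays, and 0 of the 8 passed the test. Of 15 macrophage markers, 12 were lower and 3 higher after clodronate-liposomes, 0 passed the test, and their mean log2 signal was 8.35 to 8.67 against 8.26 to 8.44. A separate list of alveolar macrophage markers, with 6 measured, had 4 positive and 2 negative differences, and 0 passed the test. Its mean was 7.12 to 7.49 against 7.29 to 7.49. All 8 general leukocyte markers had a negative difference, 0 passed the test, and their mean was 8.51 to 8.91 against 8.24 to 8.48. Type II alveolar cells make surfactant lipid and express the same synthesis genes. Their 6 measured markers had a mean of 8.75 to 9.13 on PBS-liposome arrays and 8.34 to 9.53 on clodronate-liposome arrays, and Sftpc (surfactant protein C) alone read 8.49, 12.78 and 11.47 on clodronate-liposome replicates 1 to 3. Among control probe sets, the hybridization controls averaged 12.11, 12.24 and 12.12 on the PBS-liposome arrays and 11.91, 12.20 and 11.94 on the clodronate-liposome arrays, so that clodronate-liposome replicate 2 lay with the PBS-liposome arrays and replicates 1 and 3 below them. The small-subunit ribosomal RNA probe sets split the arrays in the same way, at 13.01 and 13.00 on clodronate-liposome replicates 1 and 3 and at 12.33 to 12.63 on the other 4 arrays. PBS-liposome replicate 1 stood apart in the 9 measured cell cycle markers, with a mean log2 signal of 10.61 beside 11.27 to 11.65 on the other 5 arrays. Of 8 fibroblast and mural cell markers, 6 had a negative difference and 0 passed the test, with a mean of 9.11 to 9.44 on PBS-liposome and 9.01 to 9.30 on clodronate-liposome arrays. The part of these markers and controls in the values below was not tested. Differences with the hybridization controls as a covariate are given for some genes. These controls were lower on clodronate-liposome replicates 1 and 3, so such a fit cannot tell controls and treatment apart.

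The steps from acetyl-CoA to farnesyl diphosphate were represented by Hmgcs1, Mvk, Pmvk, Mvd, Idi1 and Fdps, of which 3 had a positive and 3 a negative difference, and 0 passed the test. Idi1, the isomerase that supplies the reactive isoprenoid unit, had the largest difference of these, 0.20 ± 0.13 (SE, adjusted p = 0.652), but a further probe set of the gene gave -0.078. Hmgcs1, the synthase that makes HMG-CoA, differed by 0.15 (95% confidence interval -0.15 to 0.44), and its 4 other probe sets by 0.075 to 0.31. It was 0.039 without clodronate-liposome replicate 2, 0.24 without replicate 1 of that group and 0.32 with the hybridization controls as a covariate. The remaining 4 genes lay between -0.089 (Pmvk, phosphomevalonate kinase) and 0.066 (Mvd, mevalonate diphosphate decarboxylase). Fdps, farnesyl diphosphate synthase, varied most between arrays of the same group in this set, with a SD of 0.31 in PBS-liposome and 0.22 in clodronate-liposome ECs (n = 3 each), around a difference of -0.037.

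Of the 11 enzymes that turn farnesyl diphosphate into squalene and then into cholesterol, 7 had a positive and 4 a negative difference, 0 passed the test, and the genes at the top and at the bottom of the list of members, Sc5d and Lss, were both among them. Sc5d encodes the desaturase that introduces a double bond into the sterol ring late in the pathway. Its log2 signal was 9.61, 9.65 and 9.66 on the PBS-liposome arrays and 10.41, 9.91 and 10.05 on the clodronate-liposome arrays. All 3 clodronate-liposome arrays were above the PBS-liposome arrays, which were tightly grouped. The difference was 0.49 ± 0.14 (SE), a 1.40-fold higher signal with a confidence interval of 1.13-fold to 1.75-fold, and the adjusted p was 0.232. A second Sc5d probe set gave 0.55 with overlapping groups and another gave -0.12.

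Dhcr7, the reductase of the last step to cholesterol, read 9.38, 9.62 and 9.69 in PBS-liposome ECs and 10.19, 9.66 and 10.10 in clodronate-liposome ECs. Clodronate-liposome replicates 1 and 3 were above all PBS-liposome arrays, and replicate 2 lay within their range. The difference was 0.41 ± 0.16 (SE, adjusted p = 0.401). Fdft1, squalene synthase, which commits farnesyl diphosphate to sterols, had the same arrangement, with 10.33, 10.56 and 10.34 against 10.90, 10.40 and 10.88. Its difference of 0.32 ± 0.15 (SE, adjusted p = 0.521) came to -0.0072 when clodronate-liposome replicate 2 was the only treated array and to 0.48 without it, and 3 further probe sets gave 0.072, 0.073 and 0.15. The arrays on which Dhcr7 and Fdft1 were high, replicates 1 and 3, were those with the low hybridization controls and the high ribosomal RNA signal. With the hybridization controls as a covariate the differences were 0.23 for Dhcr7 and 0.16 for Fdft1. Because the controls also differed between the treatments, these values cannot tell controls and treatment apart.

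Sqle, squalene epoxidase, a rate-limiting oxygen-dependent step, read 10.49, 11.06 and 10.58 on the PBS-liposome arrays and 10.94, 11.12 and 11.21 on the clodronate-liposome arrays. PBS-liposome replicate 2 reached into the range of the clodronate-liposome arrays, and the other two did not. The difference was 0.37 ± 0.16 (SE, adjusted p = 0.464). Hsd17b7, the ketoreductase that helps to remove methyl groups from the sterol ring, read 9.95, 9.90 and 9.96 against 9.998, 10.19 and 10.32, without overlap of the groups. Its difference was 0.23 ± 0.11 (SE, adjusted p = 0.507), and its other probe sets gave 0.28, 0.29 and -0.12. Msmo1, the methylsterol oxidase of the same demethylation, read 10.37, 10.60 and 10.41 against 10.53, 10.64 and 10.74, with overlapping groups and a difference of 0.18 (adjusted p = 0.629).

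Lss, lanosterol synthase, which closes the sterol rings, had the largest negative difference of the members. It read 9.61, 10.55 and 9.59 on the PBS-liposome arrays and 9.17, 9.89 and 9.09 on the clodronate-liposome arrays. Replicate 2 of each treatment was the high array of its group, and the groups overlapped. The difference was -0.54 ± 0.30 (SE, 95% confidence interval -1.23 to 0.16, adjusted p = 0.593), and it was -0.22 without PBS-liposome replicate 2. The arrays high in Lss were those with the highest hybridization controls, and with the controls' mean as a covariate the Lss difference was -0.035. That value cannot tell controls and treatment apart either. The other Lss probe sets gave -0.20 and -0.077. Cyp51, the demethylase that acts on lanosterol, also depended on the probe set, with a difference of -0.16 at the brightest one and of -0.034 and 0.50 at the others, and the brightest one gave -0.020 without PBS-liposome replicate 2. The remaining enzymes Tm7sf2 and Nsdhl, which work beside Cyp51, and the isomerase Ebp differed by 0.13, -0.13 and -0.036.

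**Figure D2:**
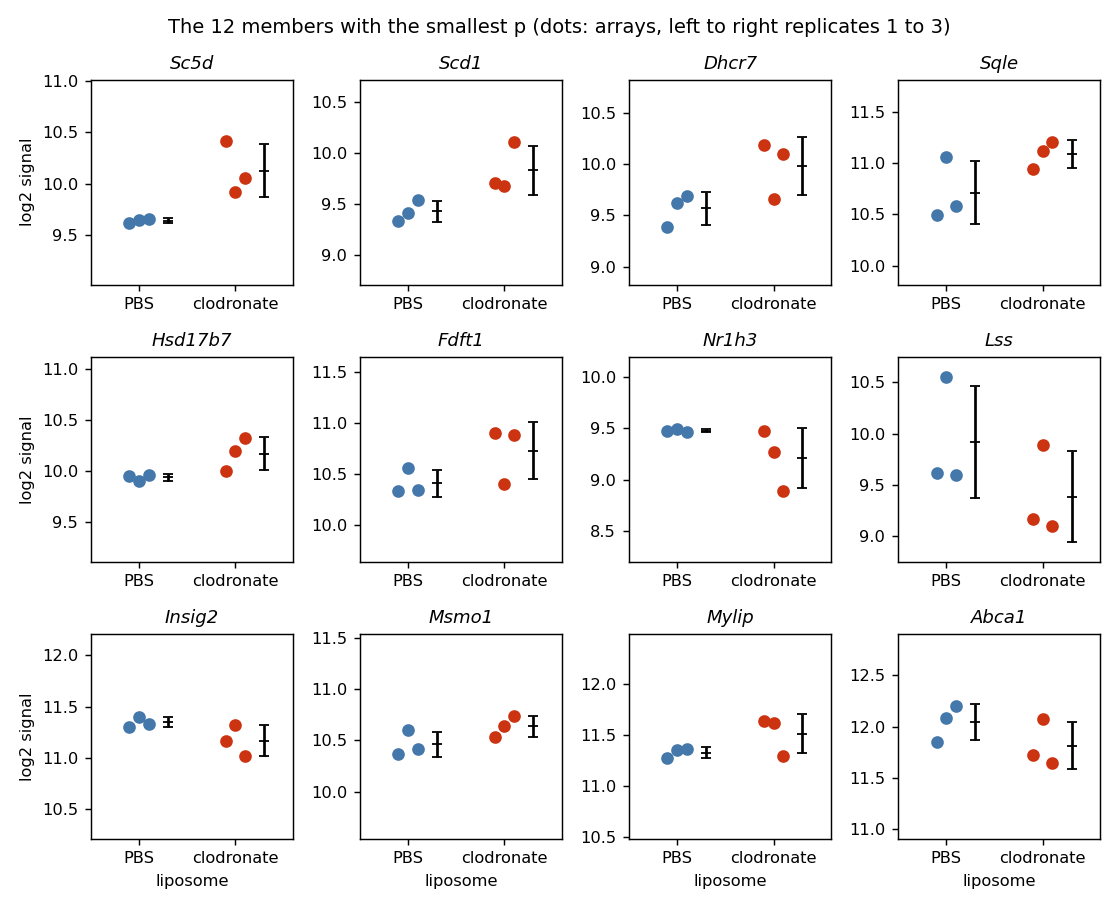
Log2 signal on each array (dots, replicates 1 to 3 from left to right within a group) of the 12 members with the smallest limma p, with the mean and SD of each liposome group (n = 3) beside the dots. Each axis spans the same number of log2 units. The groups are apart for Sc5d, Scd1 and Hsd17b7 and overlap for the other genes, and PBS-liposome replicate 2 is the high PBS-liposome array for Sqle, Fdft1, Lss and Msmo1.

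The promoters of the enzymes shared letters that the choice of genes did not use. Sequences from 250 bases before to 50 bases after the annotated start were held for 27 of the 34 listed genes in the RefSeq promoter table of build GRCm38.p6, and both strands were searched. CCAAT, the box bound by the factor NF-Y, a partner of SREBPs, was in 21 of the 27 (77.8%), beside 42.3% of 17492 coding genes. It was in 14 of the 15 genes of the mevalonate and sterol enzymes with a sequence. The GC box GGGCGG was in 22 of the 27 (81.5%) and in 14 of those 15, beside 49.2% of coding genes. A gene counted as holding a motif if any of its listed starts did. The sterol regulatory element core TCACNCCAC was in 1 of the 27, that of Hmgcs1, beside 1.41% of coding genes. The E-box CACGTG was in 6 of the 27 (22.2%), beside 8.91% of coding genes. The LXR half-site AGGTCA was in 4 of the 27 (14.8%), beside 16.7% of coding genes. Its direct repeat with a spacer of 4 bases was in 0 of the 27, beside 0 of the 17492 coding genes. A match describes the letters only, and a missing match says only that they are not in this window. The 250 bases before the start are printed for Sc5d and Hsd17b7, whose groups did not overlap, for Lss, which differed most in the opposite direction, and for Hmgcs1, which held the sterol regulatory element. Each is written on the gene's own strand from 5′ to 3′, with CCAAT (or ATTGG, the same box on the other strand) and TCACNCCAC in capitals.
Sc5d, chr9:42264301-42264550, minus strand: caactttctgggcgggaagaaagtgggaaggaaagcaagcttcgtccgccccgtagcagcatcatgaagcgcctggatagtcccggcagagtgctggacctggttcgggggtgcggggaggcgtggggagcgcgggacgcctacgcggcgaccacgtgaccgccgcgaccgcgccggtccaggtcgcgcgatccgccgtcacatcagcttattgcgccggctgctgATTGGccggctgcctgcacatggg
Hsd17b7, chr1:169969206-169969455, minus strand: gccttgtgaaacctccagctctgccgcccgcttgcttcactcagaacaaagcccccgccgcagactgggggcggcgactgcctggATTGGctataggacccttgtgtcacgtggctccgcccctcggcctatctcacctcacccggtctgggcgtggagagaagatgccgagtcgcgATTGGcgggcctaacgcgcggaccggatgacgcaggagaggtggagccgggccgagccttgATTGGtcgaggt
Lss, chr10:76531355-76531604, plus strand: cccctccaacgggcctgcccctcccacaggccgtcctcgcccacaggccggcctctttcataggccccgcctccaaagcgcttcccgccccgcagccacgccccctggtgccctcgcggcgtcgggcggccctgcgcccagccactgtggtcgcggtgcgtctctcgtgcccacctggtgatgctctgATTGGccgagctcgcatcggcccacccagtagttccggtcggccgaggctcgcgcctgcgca
Hmgcs1, chr13:119690101-119690350, plus strand: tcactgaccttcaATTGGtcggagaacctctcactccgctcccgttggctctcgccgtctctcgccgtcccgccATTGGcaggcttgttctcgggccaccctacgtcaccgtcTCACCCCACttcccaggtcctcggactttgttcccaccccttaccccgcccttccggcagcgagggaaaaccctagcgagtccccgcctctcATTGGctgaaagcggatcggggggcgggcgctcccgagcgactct

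Sc5d and Lss, at opposite ends of the differences, each held 1 CCAAT box in these 250 bases, Hsd17b7 held 3, and Hmgcs1 held 3 beside its sterol regulatory element. Because 14 of the 15 enzymes with a sequence held the box, members of both signs had it, which says nothing about the differences.

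The regulators of the pathway differed little between the treatments, with 3 positive and 3 negative differences from -0.18 to 0.083 and 0 of 6 past the test. Srebf2 encodes SREBP2, the factor that mainly drives sterol genes, and read 10.84, 10.98 and 10.78 on the PBS-liposome arrays and 11.001, 10.78 and 10.89 on the clodronate-liposome arrays. The groups overlapped over nearly their entire range, and the difference was 0.021 (95% confidence interval -0.23 to 0.27, adjusted p = 0.970). Srebf1 encodes SREBP1, whose forms mainly drive fatty acid genes and which is itself an LXR target, and read 10.72, 11.03 and 10.92 against 10.89, 10.66 and 10.75. Its groups overlapped, with a difference of -0.12 (95% confidence interval -0.39 to 0.15, adjusted p = 0.795) that was -0.21 without PBS-liposome replicate 1 and -0.052 without PBS-liposome replicate 2. Scap, the sterol-sensing escort of both factors, read 11.67, 11.58 and 11.54 against 11.67, 11.72 and 11.65, which gave 0.083 (95% confidence interval -0.13 to 0.29).

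Insig1, which retains SCAP and is itself an SREBP target often read as a gauge of pathway activity, was 10.83, 11.21 and 10.74 in PBS-liposome ECs and 10.76, 11.15 and 11.05 in clodronate-liposome ECs. Both groups contained high and low arrays, and the difference was 0.060 (95% confidence interval -0.31 to 0.43, adjusted p = 0.940). Insig2, a related retention protein that is not driven by SREBPs in the same way, read 11.30, 11.40 and 11.33 against 11.17, 11.32 and 11.02. Only clodronate-liposome replicate 2 lay within the PBS-liposome range, the difference was -0.18 (adjusted p = 0.621), and its other probe sets gave -0.20 and 0.14. Without clodronate-liposome replicate 3 the difference was -0.11. Stard4, a carrier that moves cholesterol between membranes, differed by -0.057.

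In fatty acid synthesis, Scd1 stood apart from the other 4 genes. Scd1, a desaturase that makes monounsaturated fatty acids and is a target of both SREBP1 and LXR, read 9.34, 9.41 and 9.54 on the PBS-liposome arrays and 9.71, 9.68 and 10.10 on the clodronate-liposome arrays. All clodronate-liposome arrays were above the PBS-liposome arrays, and replicate 3 was the highest. The difference was 0.40 ± 0.14 (SE), or 1.32-fold with a confidence interval of 1.06-fold to 1.64-fold, and the adjusted p was 0.330. Without clodronate-liposome replicate 3 it was 0.26, and a dimmer probe set of the gene gave 0.19 with overlapping groups. Scd2, its paralog, differed by 0.037 (95% confidence interval -0.22 to 0.29), and how far probes of the paralogs share transcripts was not tested.

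Fasn, fatty acid synthase, read 9.33, 9.69 and 9.58 on the PBS-liposome arrays and 9.68, 9.73 and 9.57 on the clodronate-liposome arrays. PBS-liposome replicate 1 was the lowest array and the groups overlapped, with a difference of 0.13 (95% confidence interval -0.15 to 0.40, adjusted p = 0.788). Without PBS-liposome replicate 1, the array that was also low in cell cycle markers, the difference was 0.024. Acly, which supplies cytosolic acetyl-CoA from citrate, differed by -0.018 and Acaca, the carboxylase that makes malonyl-CoA, by -0.025, with intervals within 1.5-fold. A second Acaca probe set differed by -0.54, with the groups apart.

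The genes of the LXR arm gave 3 negative and 1 positive difference, 0 of 4 past the test. Nr1h3, the receptor LXR alpha, which is prominent in macrophages, read 9.48, 9.49 and 9.47 on the PBS-liposome arrays and 9.47, 9.27 and 8.89 on the clodronate-liposome arrays. The PBS-liposome arrays were nearly equal, whereas the clodronate-liposome arrays spread over a wider range, with replicate 1 inside the PBS-liposome range. The difference was -0.27 ± 0.15 (SE, adjusted p = 0.589), and -0.11 without clodronate-liposome replicate 3. The general macrophage and leukocyte markers were also mostly lower in clodronate-liposome ECs, whereas 4 of 6 alveolar macrophage markers were higher. On clodronate-liposome replicates 1 to 3 the means were 8.28, 8.44 and 8.26 for the general macrophage markers and 8.27, 8.48 and 8.24 for leukocytes. The part of all these markers in the Nr1h3 difference was not tested.

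Abca1, the exporter that loads cholesterol onto apolipoproteins, read 11.85, 12.08 and 12.20 against 11.72, 12.07 and 11.64. Replicates 1 and 3 of the clodronate-liposome group were below all PBS-liposome arrays and replicate 2 was among them, for a difference of -0.23 (95% confidence interval -0.57 to 0.11, adjusted p = 0.650). The difference was 0.031 with replicate 2 as the only treated array and -0.055 with the hybridization controls as a covariate. Its other probe sets gave -0.34 and -0.35, the latter with the groups apart. Abcg1, the exporter to mature high-density lipoprotein, was nearly level across the arrays, at 12.43, 12.43 and 12.41 against 12.50, 12.37 and 12.38. The difference was -0.0067 (95% confidence interval -0.22 to 0.20), although a second probe set gave 0.18. Mylip, a ubiquitin ligase that LXR induces to lower lipoprotein uptake, read 11.27, 11.35 and 11.36 against 11.63, 11.61 and 11.29. Clodronate-liposome replicates 1 and 2 were above the PBS-liposome arrays and replicate 3 was within them, and the difference was 0.19 (adjusted p = 0.647). The exporter Abca1 and the ligase Mylip, both LXR targets, thus had differences of opposite sign.

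The synthesis genes also varied between arrays of 1 group, many but not all in the same direction. For the 17 measured mevalonate and sterol enzymes, the mean deviation from each gene's own average was -0.12, 0.11 and -0.12 on PBS-liposome replicates 1 to 3 and 0.026, 0.044 and 0.068 on the clodronate-liposome replicates. PBS-liposome replicate 2 was thus higher than all clodronate-liposome arrays in this mean, and the other PBS-liposome arrays were lower than all of them. The place of replicate 2 leaned on Lss, which deviated by 0.90 on it and by -0.48 and -0.56 on clodronate-liposome replicates 1 and 3. Mvk, Mvd, Fdft1, Hsd17b7, Sc5d and Dhcr7 were below their own average on PBS-liposome replicate 2. That array was the highest PBS-liposome array for 10 of the 17 enzymes and for 18 of all 32 members, beside 30.6% of all genes. Insig1, an SREBP target that is no enzyme of the pathway, was also highest on this PBS-liposome array. This array had the highest hybridization controls of the series (12.24), and the part of that in the enzymes' values was not tested.

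**Figure D3:**
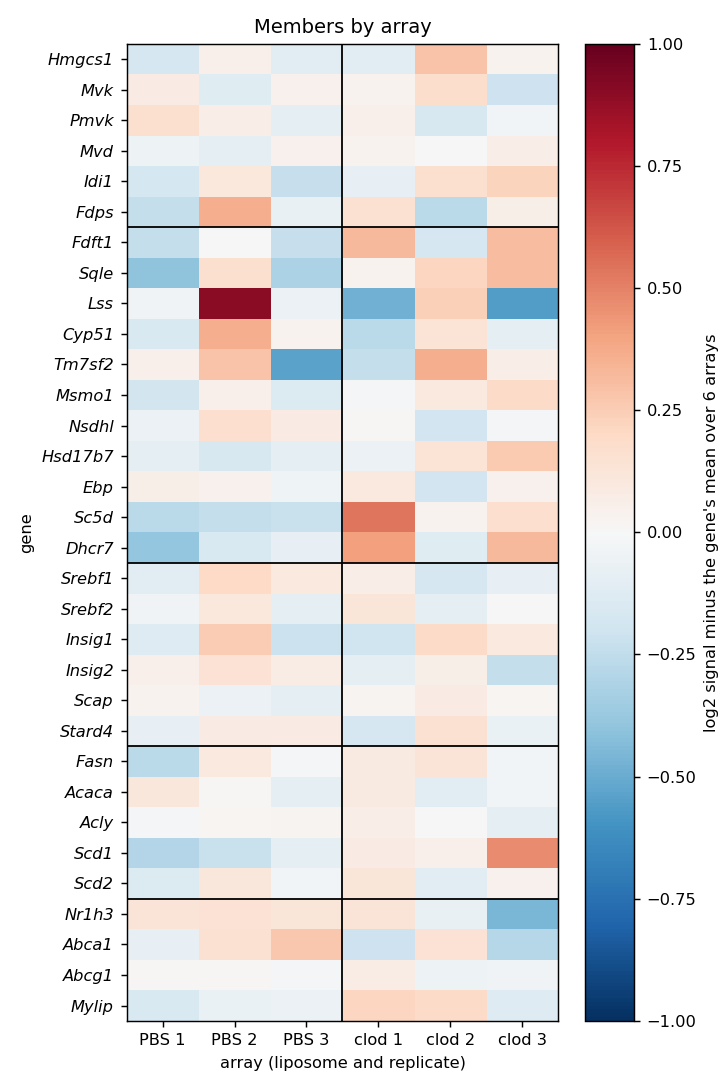
Log2 signal of each member minus its mean over the 6 arrays, by array (columns, 3 PBS-liposome and then 3 clodronate-liposome) and gene (rows, by role from the mevalonate steps down to the LXR genes), with red above and blue below the gene's mean. PBS-liposome replicate 2 is red for many sterol enzymes and Insig1, and Sc5d is blue on all PBS-liposome and red on all clodronate-liposome arrays.

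The other genes of sterol and fatty acid metabolism also held no gene past the test. Of 76 further genes on 5 lists, 63 were measured, with a median difference of -0.027 and 0 past the test. They had 27 positive and 36 negative differences, beside 8924 positive and 9269 negative among all 18193 genes. At an unadjusted limma p under 0.05, 4 were higher (6.35%) and 6 lower (9.52%), beside 4.54% and 5.49% of all genes. The groups were apart upward for 6 and downward for 10 of the 63, beside 7.49% and 8.75% of all genes. Gramd1b, a protein that carries cholesterol from the plasma membrane to the endoplasmic reticulum, had the smallest adjusted p, at 0.103. It read 10.999, 11.33 and 11.42 on the PBS-liposome arrays and 10.46, 10.68 and 10.30 on the clodronate-liposome arrays, without overlap, for a difference of -0.77 ± 0.15 (SE), or a 1.71-fold lower signal. With array quality weights the difference was -0.87 with an adjusted p of 0.0495, past the threshold, and a second probe set gave -0.19. Scarb1, the high-density lipoprotein receptor of ECs, read 13.49, 13.48 and 13.57 against 13.25, 13.25 and 13.35, also without overlap, for a difference of -0.23 (adjusted p = 0.411). Its other probe sets gave -0.36 and -0.33, with the groups apart in the same direction.

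Among further genes of fatty acid synthesis, Thrsp and Slc25a1 had the smallest p values. Thrsp, a nuclear protein induced together with lipogenic genes, read 9.003, 8.89 and 9.27 against 9.70, 9.82 and 9.57, without overlap and with a difference of 0.64 ± 0.13 (SE, adjusted p = 0.120), but its other probe sets gave -0.13 and -0.11. Slc25a1, the mitochondrial carrier that exports the citrate used by Acly, read 10.90, 10.85 and 10.81 against 10.22, 10.56 and 10.22, a difference of -0.52 ± 0.12 (SE, adjusted p = 0.155) with the groups apart. In isoprenoid and sterol synthesis outside the members, Lbr, which also has sterol reductase activity, differed by 0.18 and Pgrmc1, a heme-binding partner of sterol enzymes, by 0.24. Among other LXR partners and targets, the receptor partner Rxra differed by 0.17 and the phospholipid-remodelling enzyme Lpcat3 by -0.15. Other Rxra probe sets gave 0.098 and 0.36, the latter with the groups apart. None of these 6 genes passed the test.

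The list of oxysterol and bile acid metabolism held enzymes that make or break down oxysterols, and Gpr183 (-0.23), a receptor for an oxysterol. Of these 8 genes, 7 had a negative and 1 a positive difference, beside 9269 negative differences among all 18193 genes. The list was written with earlier results of these data known, so the split only describes it. Sult2b1, Cyp27a1, Cyp46a1 and Gpr183 were faint, at percentiles 11.6 to 35.6 of mean signal. The median of the 8 genes was -0.26, and 0 passed the test. Their mean log2 signal was 8.69 to 8.75 on PBS-liposome arrays and 8.51 to 8.55 on clodronate-liposome arrays, without overlap. Cyp27a1, the mitochondrial sterol hydroxylase, read 7.27, 7.28 and 7.23 against 6.999, 6.76 and 7.01, a difference of -0.33 (adjusted p = 0.285). Hsd3b7, another enzyme of oxysterol and bile acid metabolism, read 11.84, 11.85 and 11.80 against 11.46, 11.44 and 11.72, a difference of -0.29 (adjusted p = 0.378). Ch25h, an oxysterol-producing hydroxylase, and Cyp7b1, which acts further on its product, were picked after their values were seen. They differed by -0.37 and -0.36, with overlapping groups and adjusted p values of 0.478 and 0.498. Other probe sets of Cyp7b1 gave -0.22 and 0.059. Several of these enzymes are also made by macrophages, and the part of the lower macrophage and leukocyte markers in these values was not tested.

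**Figure D4:**
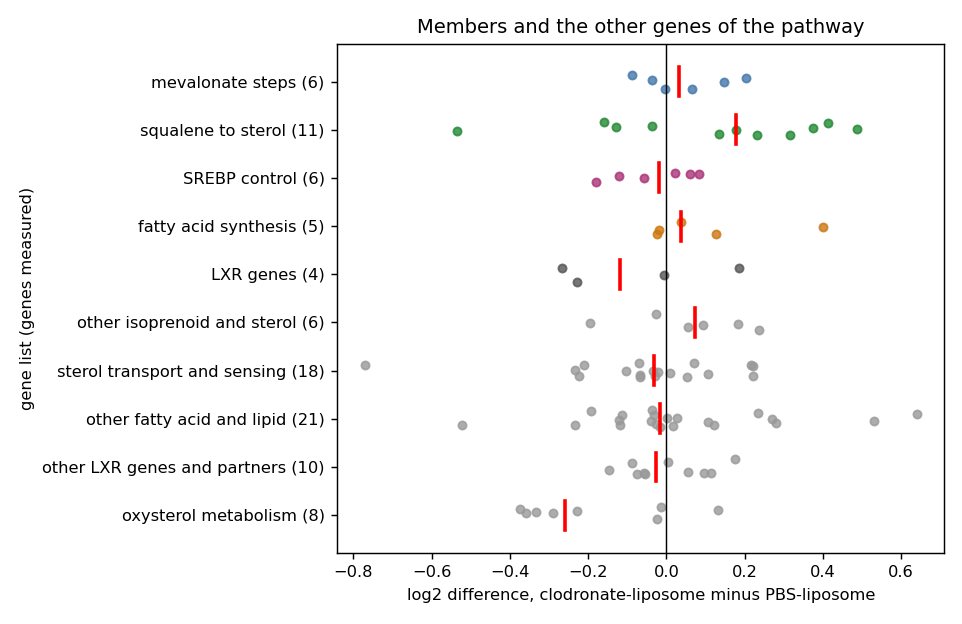
Difference in log2 signal, clodronate-liposome minus PBS-liposome, of every measured gene (dots, coloured for the members by role and grey for further genes) by list, with the list's median in red and the number of genes measured in brackets. Medians lie between -0.26 for oxysterol metabolism and 0.18 for the enzymes from squalene to sterol, and 0 of the genes passed the adjusted threshold.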

How the data were processed

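RNA of 6 samples of sorted lung ECs was measured on Affymetrix mouse arrays, 1 array per sample and 3 samples per liposome treatment, grouped by the treatment in the labels. The authors made the deposited log2 signals with robust multiarray averaging (RMA), which corrects background, brings the arrays to a common distribution and summarizes the probes into 1 value per probe set, with a median of 8.13 on each array. These log2 values were used as deposited, and the scanner files were not used here. After the 64 control probe sets were set aside, 45037 probe sets were tested without a signal filter. The platform annotation gave 34945 of them 1 symbol, 932 several and 9160 none, and each of 18193 genes was read from its brightest single-symbol probe set. For 21 members more than 1 such probe set existed, and 27 of the 39 other probe sets disagreed with the brightest one, in direction or with a difference over 2 times larger or smaller.

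Differences were fitted by the lmFit and eBayes functions of limma (version 3.58.1, run in R version 4.3.3) as a two-sided test without covariates, with 4 residual and 3.90 prior degrees of freedom, and adjusted by the Benjamini-Hochberg procedure at a threshold of 0.05. The script was tested on simulated data. The number of arrays limits the precision. The members named with array values were the 12 with the smallest p plus Srebf1, Srebf2, Insig1, Scap, Fasn and Abcg1, and for each further list the 2 genes with the smallest p. The members and lists were chosen with earlier results of these data known. A gene's motif matches came from its RefSeq promoters. The alternatives were a second normalization, median centring, a low-signal filter, another variance model, array weights, a replicate block, covariates, other probe set choices and fewer arrays.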

Additional observations from a re-analysis of the deposited data

How the results depend on the processing

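Across 17 alternative settings, 0 of the 32 members passed the adjusted threshold, the smallest adjusted p of a member in any of them was 0.150, and 16 of the 32 kept the sign of their difference in every setting. The number of probe sets that passed, 138 as reported, was 244 with a low-signal filter, 248 with a trended and robust variance, 234 with array weights, 43 with the 3′ minus 5′ signal as a covariate, 0 with the hybridization controls as a covariate (4710 at an unadjusted limma p under 0.05) and 0 when replicate 2 alone stood for the clodronate-liposome group (3964 at an unadjusted p under 0.05), and it ranged from 6 (without PBS-liposome replicate 2) to 73 (without clodronate-liposome replicate 2) when 1 array was left out. With array weights 1 further pathway gene passed, Gramd1b. The median of the mevalonate steps was -0.057 with the most variable probe set of each gene and 0.0998 when replicate 2 alone stood for the clodronate-liposome group, and 0.022 to 0.086 with 1 array left out. The median of the fatty acid genes was -0.016 to 0.10 with 1 array left out. The median of the LXR genes, -0.12 as reported, was -0.046 with the hybridization covariate, -0.045 with the most variable probe set and -0.048 without clodronate-liposome replicate 3, and that of the regulators turned from -0.018 to 0.028 with the hybridization covariate and 0.021 without PBS-liposome replicate 2.

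The replicate numbers were not taken as pairs, because the deviations of same-numbered arrays correlated at 0.075, 0.070 and 0.036, although each array correlated best with its own number. With the replicate number as a block, 0 probe sets passed in limma (5033 at an unadjusted p under 0.05, smallest adjusted p 0.0507), 0 members passed and the differences were those reported.

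Several members turned sign, Fdft1 from a reported difference of 0.32 and the others from differences under 0.25 in size. With the 3′ minus 5′ covariate Mvk was 0.029, Acly 0.0079 and Abcg1 0.0027. With the hybridization covariate Mvk was 0.062, Cyp51 0.063, Srebf2 -0.019, Stard4 0.076 and Scd2 -0.0097. With the most variable probe set Mvd was -0.090, Idi1 -0.078, Cyp51 0.50, Srebf2 -0.051, Acly 0.077, Scd2 -0.21 and Abcg1 0.18. With the mean of a gene's probe sets Mvd was -0.012, Fdps 0.012, Cyp51 0.10, Srebf2 -0.015, Acly 0.049, Scd2 -0.095 and Abcg1 0.084. With replicate 2 alone for the clodronate-liposome group, whose lone sample is assumed to vary like the other group, Mvk was 0.17, Fdft1 -0.0072, Cyp51 0.053, Srebf2 -0.089, Stard4 0.12, Scd2 -0.094 and Abca1 0.031. With 1 array left out the differences ranged over -0.090 to 0.10 for Mvk, -0.16 to 0.14 for Fdps, -0.10 to 0.31 for Tm7sf2, -0.092 to 0.049 for Ebp, -0.035 to 0.080 for Srebf2, -0.033 to 0.20 for Insig1, -0.15 to 0.014 for Stard4, -0.078 to 0.027 for Acaca, -0.057 to 0.028 for Acly, -0.023 to 0.10 for Scd2 and -0.046 to 0.016 for Abcg1. Among members that kept their sign, leaving out 1 array moved the difference by over 1.5 times for those said so in the report and for Pmvk (-0.16 to -0.031), Mvd (0.036 to 0.10), Idi1 (0.14 to 0.31), Nsdhl (-0.19 to -0.065), Abca1 (-0.36 to -0.14) and Mylip (0.13 to 0.29). The causes were not tested.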
